A study of Homo sapiens with 56 samples.

Results

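Complex I, NADH:ubiquinone oxidoreductase, was followed here through the mRNAs of its subunits in 7 colorectal cancer cell lines given 2-methylisocitrate (2-MiCit). Members were taken from a list of 43 subunit symbols, 36 of them nuclear and 7 mitochondrially encoded, matched to the Ensembl identifiers of the deposited count tables. Of these, 42 had counts, 35 nuclear and 7 mitochondrial, among 16485 genes in the table of 4 lines and 16454 genes in the table of 3 lines. NDUFS1, the iron-sulfur subunit of the matrix arm that carries the most clusters, had no row and is not analysed here.

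The lines were HCT116, DLD1, LoVo and SW948 in one table and HT29, SKCO1 and SW1417 in the other, all established epithelial lines from colorectal tumours with no genetic change named in the labels. Each line was grown with 10 mM 2-MiCit or with the water vehicle as control, in 4 libraries per group, which gave 14 groups and 56 libraries. How long the cells were treated was not stated in the texts used here. Whether the 4 libraries of a group are separate cultures is also not stated, and the p-values therefore describe variation among libraries that could be technical. 2-MiCit is an intermediate of the methylcitrate cycle, which takes up propionyl-CoA and oxaloacetate.

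Complex I is the entry point of electrons from NADH into the respiratory chain and pumps protons across the inner mitochondrial membrane. Its matrix arm oxidises NADH and passes the electrons along iron-sulfur clusters to ubiquinone, and its membrane arm holds the proton channels. The 7 core subunits of the membrane arm are encoded by mitochondrial DNA and transcribed inside the organelle, whereas the matrix arm and all accessory subunits are encoded in the nucleus, made in the cytosol and imported, so 1 complex draws on 2 separately transcribed genomes.

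Total counts ranged from 13837856 to 19447718 per library in the table of 4 lines and from 29072881 to 45432695 in the table of 3 lines. All 7 epithelial markers had counts in both tables, and KRT8 had 2446 CPM in HCT116 controls and 4497 CPM in SW1417 controls. Only 1 of 6 fibroblast, 3 of 6 leukocyte and 1 of 5 endothelial markers had a row in both tables. With 2-MiCit, epithelial markers called higher were KRT8, KRT18 and CDH1 in HCT116, VIL1 and CDH1 in SKCO1 and VIL1 in HT29, and those called lower were EPCAM and CDX2 in HCT116 and KRT8 and KRT19 in SW1417. Of the leukocyte markers, CD68 was lower in HCT116 (7.84 against 5.60 CPM), SKCO1 (25.2 against 22.3 CPM) and SW1417 (14.0 against 9.94 CPM), and LYZ was higher in SKCO1 (53.5 against 62.7 CPM). The part of these markers in the results below was not tested. In bulk RNA, fewer cells of a type and less RNA per cell cannot be told apart. Libraries also differed in how strongly read counts depended on transcript length, described below, and DLD1 control replicate 1 and SW948 2-MiCit replicate 2 stood apart from the other libraries of their lines.

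The 2 sequence features that bear on these mRNAs are shown first. MT-ND4L and MT-ND4, 2 of the 3 mitochondrial subunits that rose in HCT116, are read from 1 shared mRNA and overlap by 7 bases at chrM:10760-10766 of GRCh38, on the plus strand. The shared bases are in capitals at the end of one coding sequence and the start of the other.
MT-ND4L, chrM:10740-10766: cataacctaaacctactccaATGCTAA
MT-ND4, chrM:10760-10786: ATGCTAAaactaatcgtcccaacaatt
Reads over these bases cannot be assigned to 1 of the 2 genes.

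The nuclear subunits were matched to RefSeq windows of GRCh38.p14 that run from 250 bases before to 50 bases after each gene's start, and 32 of the 36 had one. Each window of 300 bases was searched on both strands for the motif of nuclear respiratory factor 1 (NRF1), for the letters CCGGAAG of ETS factors such as GABP, and for AANATGGC of YY1. The YY1 letters stood in 13 of the 32 windows, or 40.6%, against 7.97% of 27305 genes. The NRF1 letters stood in 6 windows, or 18.8%, against 6.98% of genes, and the ETS letters in 5, or 15.6%, against 12.2%. At least 1 of the 3 stood in 19 windows, or 59.4%, against 23.4% of genes.
The YY1 match is shown in capitals, with 8 bases on each side, for NDUFS7, the member with the smallest adjusted p in SKCO1, and for 3 members that passed the test in no line.
NDUFS7, chr19:1383916-1383939, plus strand: ccgaggccAAGATGGCggtgctgt
NDUFS4, chr5:53560652-53560675, plus strand: cctgcagcAAGATGGCggcggtgt
NDUFB8, chr10:100529839-100529862, minus strand: agaaggtgAAGATGGCggtggcca
NDUFA7, chr19:8321346-8321369, minus strand: gcggacggAAGATGGCgtccgcca
Of the 10 windows with this match on the strand of the gene, 9 have their annotated start codon inside the match, so that the letters ATGG are also the first bases of the protein-coding sequence. The YY1 and start codon readings of these letters cannot be told apart.
The NRF1 motif, whose 10 letters include 1 free base, is shown in capitals for NDUFA11 and NDUFA12, both lower in SKCO1. Other windows with the motif were those of NDUFA3, called higher in HCT116, and of NDUFA8, NDUFA9 and NDUFB4, called in no line. In NDUFA12 the free base is the sixth of the capitals. In NDUFA11 the motif lies on the other strand of the gene, so the free base is the fifth of the capitals printed.
NDUFA11, chr19:5903871-5903896, minus strand: ggtccccgGCGCGTGCGCgcgatcca
NDUFA12, chr12:95003796-95003821, minus strand: ctagctctGCGCACGCGCagagccac
NDUFAB1, lower in both HCT116 and SKCO1, held none of the 3 motifs in its window. Its 250 bases before the start, chr16:23596317-23596566 on the minus strand, are printed with those of NDUFA12, chr12:95003698-95003947 on the minus strand, where the NRF1 letters are in capitals.
NDUFAB1: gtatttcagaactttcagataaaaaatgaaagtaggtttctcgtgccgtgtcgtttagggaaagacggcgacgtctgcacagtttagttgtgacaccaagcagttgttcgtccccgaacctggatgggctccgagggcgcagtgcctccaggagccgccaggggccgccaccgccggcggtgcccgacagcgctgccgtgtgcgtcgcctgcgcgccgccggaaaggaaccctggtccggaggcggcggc
NDUFA12: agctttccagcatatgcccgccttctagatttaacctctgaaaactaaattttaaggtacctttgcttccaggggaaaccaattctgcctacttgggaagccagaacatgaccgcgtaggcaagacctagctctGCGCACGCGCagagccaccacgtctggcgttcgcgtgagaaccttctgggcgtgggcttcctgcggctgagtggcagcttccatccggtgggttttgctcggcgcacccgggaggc
The motif counts are descriptions of letters in a window, and the absence of a match says only that these letters were not in it.

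In the control libraries most mitochondrial subunits stood far above the nuclear ones. Control levels were taken as CPM (counts relative to the library total, with TMM scaling), set over the control libraries of a table and divided by transcript length in kb so that genes can be compared. The median nuclear subunit lay between 79.8 CPM per kb in LoVo and 89.1 CPM per kb in SKCO1. The median mitochondrial subunit lay between 1252 CPM per kb in HT29 and 2627 CPM per kb in SW1417. The ratio of the 2 medians was lowest in HT29 at 15.5 and highest in SW1417 at 31.5, with DLD1 at 16.6, HCT116 at 16.1, SKCO1 at 20.7, LoVo at 23.3 and SW948 at 25.9. Levels set across the 2 tables were scaled separately and were not tested against each other.

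**Figure D1:**
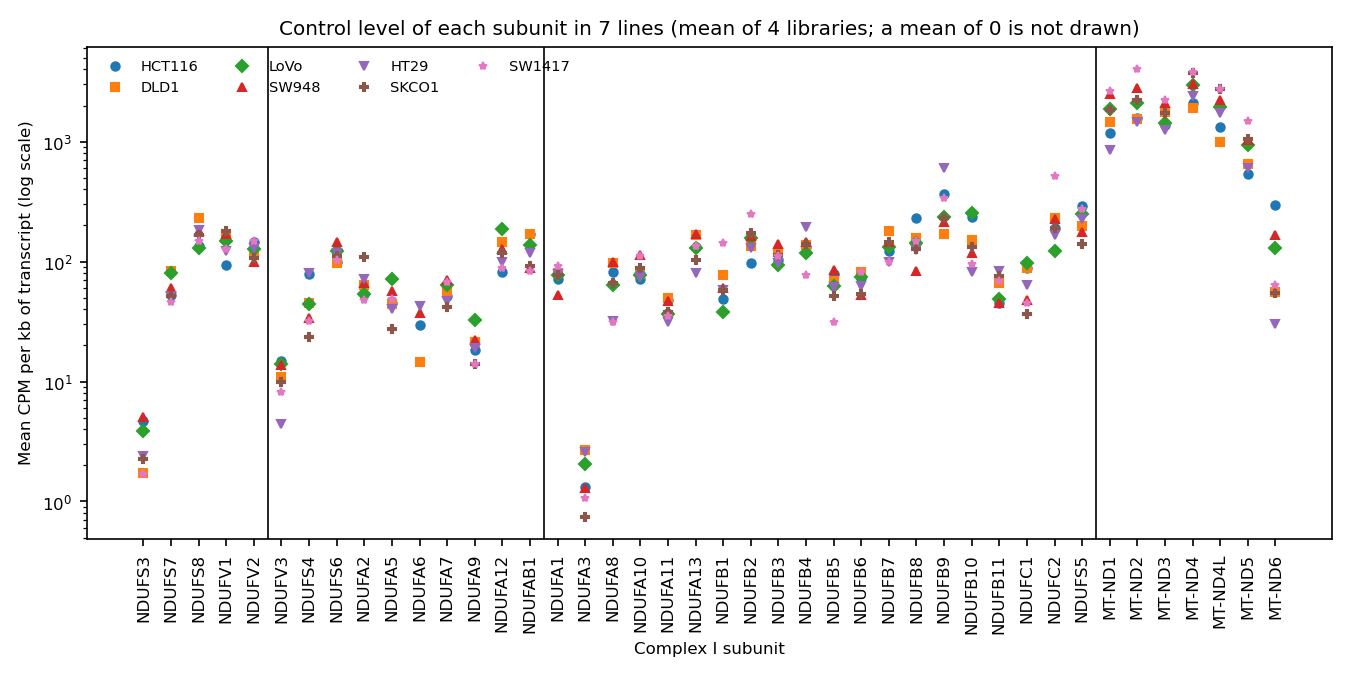
Control level of each subunit, as mean CPM per kb of transcript over 4 libraries on a log axis, with 1 symbol per cell line. From left to right the blocks hold the matrix arm core, matrix arm accessory, membrane arm accessory and mitochondrially encoded subunits, and 5 of the 7 mitochondrial subunits lie above every nuclear subunit, while MT-ND5 in HT29 is level with NDUFB9 there (604 CPM per kb each) and MT-ND6 lies among the nuclear subunits.

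MT-ND4, an antiporter-like proton channel, was the highest mitochondrial subunit per kb in 6 lines, and MT-ND2, another of the channels, was the highest in SW1417 at 4003 CPM per kb. MT-ND6, the only subunit encoded on the other mitochondrial strand, was the lowest of the 7 in every line. MT-ND6 mRNA is known to lack the poly(A) tail that the other 6 carry, and the libraries were made with an mRNA kit. The kit keeps strand, but no source used here says whether counting did, so reads of MT-ND6 and of RNA antisense to it cannot be told apart.
MT-ND6 had the widest range of the 7 in the table of 4 lines: its control mean was 156 ± 30.9 CPM in HCT116 and 29.5 ± 10.2 CPM in DLD1 (SD, n = 4). These levels differ 5.28-fold, and the control groups of the 4 lines differed with an adjusted p of 4.29e-07 in edgeR's quasi-likelihood test. LoVo had 68.6 ± 13.0 CPM and SW948 86.9 ± 18.1 CPM of MT-ND6, ranges that overlap.
In the table of 3 lines all 7 mitochondrial subunits had the same order of means, HT29 below SKCO1 below SW1417. MT-ND1, which shapes the ubiquinone chamber, had 814 ± 84.1 CPM in HT29, 1762 ± 44.3 in SKCO1 and 2511 ± 162 in SW1417 (SD, n = 4), with groups that do not overlap. MT-ND4 had 3304 ± 200.2 CPM in HT29, 5102 ± 277 in SKCO1 and 5222 ± 402 in SW1417, and the SKCO1 and SW1417 libraries overlapped.

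Nuclear subunits also differed between lines, as most genes did. Members passed the test of equal control levels in 32 of 42 cases in the table of 4 lines, where 91.4% of tested genes did, and in 41 of 42 in the table of 3 lines, where 94.3% did. NDUFS4, an accessory subunit of the matrix arm, was 3.43-fold higher in HT29 than in SKCO1 (54.5 against 15.9 CPM). NDUFC2, a membrane arm subunit, was 3.11-fold higher in SW1417 than in HT29 (291 against 93.7 CPM). These pairs are the highest and lowest of the 3 lines and were not tested as pairs. Over the control groups of all 3 lines the adjusted p was 1.12e-15 for NDUFS4 and 1.33e-18 for NDUFC2 (edgeR). NDUFV1, which binds FMN and takes the electrons from NADH, had control means from 142 CPM in HCT116 to 259 CPM in SW948 in the table of 4 lines and from 187 CPM in HT29 to 274 CPM in SKCO1 in the table of 3 lines.
NDUFC2 shares sequence with the readthrough gene NDUFC2-KCTD14, which held from 0.46% to 11.8% of its count, and NDUFV2 with the copy NDUFV2P1, with 0.774% to 3.71%. MT-ND2 shares sequence with the nuclear copy MTND2P28, whose count was 1.31% to 4.37% of its own. Reads of such pairs may be split between the 2 genes.

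3 nuclear members had counts that limit what can be said of them. NDUFA6, a LYR-motif subunit of the matrix arm that binds acyl carrier protein, was at 0 in all 8 libraries of LoVo, SKCO1 and SW1417 and in 2 of 8 libraries each of HCT116 and DLD1. In the other libraries NDUFA6 had between 218 and 2104 counts. NDUFA3 had 3 to 55 counts per library and NDUFS3 8 to 71 counts. The log2 fold change of NDUFA6 in HCT116, -1.32, includes the 2 libraries at 0 and was not called. NDUFA6 was not tested in LoVo, SKCO1 and SW1417, and NDUFA3 not in LoVo, SW948 and SKCO1, for low counts.

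Of the HCT116 subunits that passed the test with 2-MiCit, the nuclear ones were lower, with 1 exception, and the mitochondrial ones were higher. Of 35 nuclear subunits, 4 were lower (NDUFAB1, NDUFB10, NDUFB9 and NDUFV2) and 1 was higher (NDUFA3). Fold changes were below 1 for 32 of the 35, against 46.56% of all genes tested. Of the 7 mitochondrial subunits, 3 were higher (MT-ND4, MT-ND4L and MT-ND5) and none was lower. A gene was called changed at an adjusted p below 0.05, with edgeR's quasi-likelihood test and Benjamini-Hochberg adjustment over all 13834 genes tested in the line. Of those genes 18.0% were lower and 19.0% were higher. The nuclear subunits called lower were a smaller share, 4 of 35 or 11.4%. The mitochondrial subunits called higher were a larger share, 3 of 7 or 42.9%. MT-ND4 and MT-ND4L share 1 mRNA, so these 3 calls are not independent of each other. The nuclear count is not stable: 14 were lower without 2-MiCit replicate 3, 7 without control replicate 4 and 0 in 1 fit over the 4 lines of the table, which also called 0 mitochondrial subunits. With same-numbered libraries taken as a block, the nuclear count was higher than any of these, as given below. The median log2 fold change was -0.17 over the nuclear subunits, 0.41 over the mitochondrial ones and 0.03 over all tested genes.

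**Figure D2:**
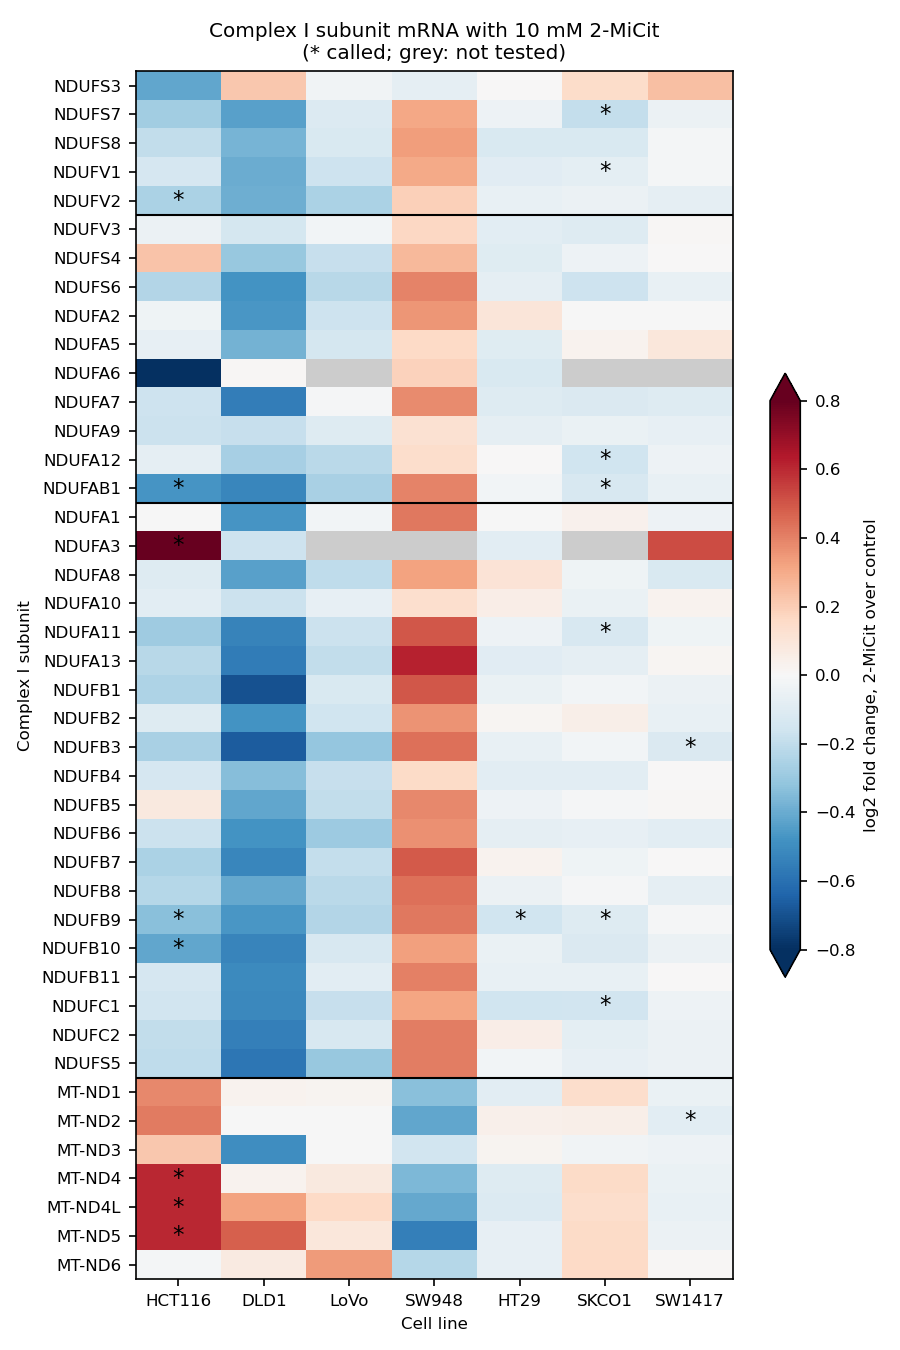
Log2 fold change of each of 42 complex I subunits, 2-MiCit over control, in 7 lines, with colours from blue (lower) to red (higher) that saturate at 0.8. Stars mark adjusted p below 0.05, lines divide matrix arm core, matrix arm accessory, membrane arm accessory and mitochondrial subunits, and the columns of DLD1 and SW948 have opposite colours in the nuclear rows with no star.

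NDUFAB1, the mitochondrial acyl carrier protein that also serves lipoic acid synthesis, was at 157, 141, 137 and 133 CPM in the 4 HCT116 controls and at 107, 96.4, 120 and 86.5 CPM with 2-MiCit. The groups did not overlap, and the level was 1.39-fold lower (log2 fold change -0.47, SE 0.09, adjusted p = 0.00321, edgeR).
NDUFB10, an accessory subunit of the far membrane arm, was at 169, 169, 184 and 172 CPM in controls and at 132, 124, 150 and 115 CPM with 2-MiCit. It was 1.33-fold lower, with no overlap (log2 fold change -0.41, SE 0.08, adjusted p = 0.00208, edgeR).
NDUFB9, a LYR-motif subunit of the far membrane arm that binds acyl carrier protein, was at 305, 287, 287 and 270 CPM in controls and at 221, 209, 265 and 215 CPM with 2-MiCit. It was 1.26-fold lower, with no overlap (log2 fold change -0.33, SE 0.08, adjusted p = 0.00639, edgeR).
NDUFV2, an iron-sulfur subunit beside NDUFV1 at the tip of the matrix arm, was at 149, 140, 141 and 135 CPM in controls and at 123, 110, 139 and 102 CPM with 2-MiCit. Its groups overlapped through 2-MiCit replicate 3, and it was 1.19-fold lower (log2 fold change -0.25, SE 0.09, adjusted p = 0.0444, edgeR). Its call was lost when any 1 library other than 2-MiCit replicate 3 was left out, with adjusted p up to 0.121, whereas NDUFAB1, NDUFB10 and NDUFB9 kept theirs with each library left out.
NDUFA3, a small membrane arm subunit, was called higher on very few reads, 8 to 10 counts per control library against 15 to 27 with 2-MiCit. It had 0.563 ± 0.02 CPM in controls and 1.17 ± 0.37 CPM with 2-MiCit (SD, n = 4), a 2.05-fold difference with an adjusted p of 0.0132 that DESeq2 did not call. NDUFV1 was not called in HCT116, with 149 ± 18.1 CPM against 136 ± 15.4 CPM.

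MT-ND4 was at 3864, 2461, 3334 and 2382 CPM in the HCT116 controls and at 5808, 4399, 4035 and 4070 CPM with 2-MiCit. All treated libraries lay above all controls, and MT-ND4 was 1.52-fold higher (log2 fold change 0.60, SE 0.19, adjusted p = 0.0348, edgeR). This call was lost without control replicate 2 or 4 or without 2-MiCit replicate 1, 2 or 4, with adjusted p up to 0.0809.
MT-ND5, the channel subunit at the far end of the membrane arm, was at 1184, 896, 1157 and 870.2 CPM in controls and at 1923, 1620, 1200 and 1506 CPM with 2-MiCit. The groups did not overlap, though the highest control was close to the lowest treated library, and the level was 1.52-fold higher (adjusted p = 0.0165, edgeR). In 1 fit over the 4 lines its adjusted p was 0.19.
MT-ND4L, the small subunit that shares its mRNA with MT-ND4, was at 485, 357, 421 and 388 CPM in controls and at 771, 593, 467 and 671 CPM with 2-MiCit. Here 2-MiCit replicate 3 fell below control replicate 1, and the level was 1.52-fold higher (adjusted p = 0.0156, edgeR).

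The other 4 mitochondrial subunits were not called in HCT116. MT-ND2 was at 2149, 1419, 1985 and 1382 CPM in controls and at 2908, 2275, 2049 and 1998 CPM with 2-MiCit (adjusted p = 0.111, edgeR). MT-ND1 was at 1573, 950.1, 1317 and 869.8 CPM in controls and at 2102, 1462, 1275 and 1302 CPM with 2-MiCit (adjusted p = 0.251, edgeR). Control replicates 1 and 3 were the high controls and 2-MiCit replicate 1 was the highest treated library for both genes, and the groups overlapped. MT-ND3, at the joint of the 2 arms, was at 607, 422, 538 and 439 CPM in controls and at 691, 541, 605 and 496 CPM with 2-MiCit. MT-ND6, beside MT-ND3 and MT-ND4L in the membrane, was at 212, 140, 158 and 142 CPM in controls and at 218, 161, 126 and 140 CPM with 2-MiCit, a log2 fold change of -0.02 (SE 0.20). MT-ND6 was the 1 mitochondrial subunit whose fold change was not above 1, and its difference from the other 6 was not tested.

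**Figure D3:**
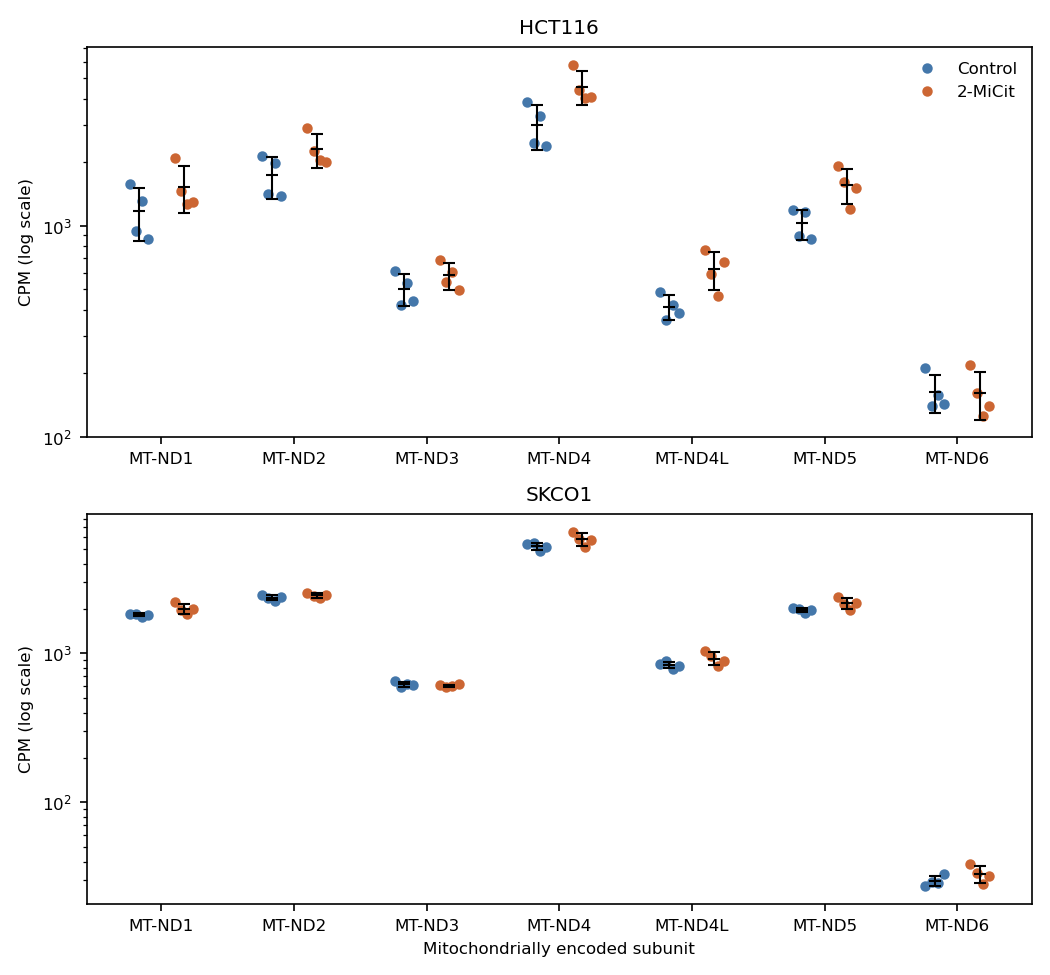
CPM of the 7 mitochondrially encoded subunits in each library of HCT116 (top) and SKCO1 (bottom), on log axes; points are libraries and the bars give the mean and SD of 4. In HCT116 the treated libraries of MT-ND4 and MT-ND5 lie above all controls and those of MT-ND6 overlap with them, and in SKCO1 the controls are close together, at 1751 to 1847 CPM for MT-ND1.

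The other mitochondrial mRNAs of HCT116 lay on the same side as the complex I subunits, with 1 of 6 called higher and all 6 above 0 (median log2 fold change 0.38). That 1 was MT-CYB, the mitochondrial subunit of complex III, at 1142 CPM in controls and 2209 CPM with 2-MiCit (log2 fold change 0.95, SE 0.23, adjusted p = 0.0152, edgeR). The lists of nuclear genes that serve the respiratory chain are to be read against the 18.0% of all genes called lower and the 19.0% called higher in this line. Of 20 complex I assembly factors, 10 were lower and 1 higher (median log2 fold change -0.23), led by NDUFAF3, which acts early in building the matrix arm, at 52.7 against 34.8 CPM (log2 fold change -0.60, SE 0.09, adjusted p = 0.000475, edgeR). TMEM70, an assembly factor of complexes I and V, and COA1, which acts on the membrane arm, were also lower, with log2 fold changes of -0.38 and -0.28.
Of 16 genes for transcription of mitochondrial DNA and handling of its RNA, 11 were lower and 1 higher, led by PNPT1, a mitochondrial ribonuclease (-0.44), GRSF1, an RNA granule protein (-0.35), and FASTKD4, which stabilises mitochondrial mRNAs (-0.35). Among 7 tested regulators of respiratory genes, 4 were lower, PPRC1, GABPB1 and NRF1 first by adjusted p, with log2 fold changes of -0.40, -0.23 and -0.24.
Of the other respiratory complexes, 11 of 15 nuclear subunits of complex V, 4 of 9 of complex III, 1 of 11 of complex IV (COX7B, -0.29) and 1 of 4 of complex II (SDHB, -0.23) were lower and none was higher. ATP5PB of the complex V stalk (-0.41), UQCRQ (-0.42) and the Rieske protein UQCRFS1 (-0.37) of complex III were among them.

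In SKCO1 the nuclear subunits again lay lower, by smaller amounts. 7 of 33 tested were lower, NDUFS7, NDUFAB1, NDUFA12, NDUFB9, NDUFA11, NDUFV1 and NDUFC1, and none was higher. That is 21.2%, against 10.8% of the 14651 genes tested. Values were below 0 for 29 of the 33, against 48.13% of all genes tested, with a median log2 fold change of -0.07. By place in the complex, 2 of 5 core subunits of the matrix arm, 2 of 9 accessory subunits of the matrix arm and 3 of 19 accessory subunits of the membrane arm were lower. None of the 7 mitochondrial subunits was called, against 8.10% of genes called higher, and 6 of them had values above 0 with a median of 0.14.

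NDUFS7, which carries the last iron-sulfur cluster before ubiquinone, was at 57.2, 52.9, 56.0 and 55.3 CPM in SKCO1 controls and at 47.1, 46.8, 50.6 and 49.8 CPM with 2-MiCit. It was 1.14-fold lower, with no overlap (log2 fold change -0.19, SE 0.04, adjusted p = 0.00212, edgeR).
NDUFAB1 was at 75.7, 75.8, 77.5 and 76.5 CPM in controls and at 68.7, 67.6, 72.3 and 70.3 CPM with 2-MiCit. It was 1.10-fold lower, with no overlap (adjusted p = 0.00496, edgeR).
NDUFA12, an accessory subunit of the matrix arm, was at 58.5, 59.5, 60.5 and 59.6 CPM in controls and at 51.2, 50.03, 56.9 and 55.1 CPM with 2-MiCit. It was 1.12-fold lower, with no overlap (adjusted p = 0.00979, edgeR).
NDUFB9 was at 182, 173, 185 and 179 CPM in controls and at 160.0, 167, 172 and 169 CPM with 2-MiCit. It was 1.08-fold lower, and the groups nearly touched (adjusted p = 0.0133, edgeR).
For all 4 genes 2-MiCit replicate 3 was the treated library nearest the controls. NDUFS7, NDUFAB1 and NDUFA12 kept their call in all 18 alternative settings, and NDUFB9 lost it without control replicate 3 and with the authors' gene-wise scaling.
NDUFA11, an accessory subunit of the membrane arm, was 1.09-fold lower without overlap (83.5 ± 3.83 against 76.4 ± 2.26 CPM, adjusted p = 0.0166, edgeR). Its call was lost without control replicate 3, 2-MiCit replicate 2 or 2-MiCit replicate 4. NDUFV1 (281 ± 4.71 against 267 ± 8.56 CPM) and NDUFC1, a small membrane arm subunit (29.5 ± 1.80 against 26.6 ± 1.39 CPM), overlapped between the groups. Both lost their calls without any 1 of control replicates 1, 3 and 4 or 2-MiCit replicates 1, 2 and 4. NDUFC1 also lost its call with DESeq2, with no filter and with the length trend of the libraries removed, and NDUFV1 with no filter and with the stricter filter of 5 CPM.

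MT-ND1 was at 1847, 1837, 1751 and 1816 CPM in SKCO1 controls and at 2206, 1955, 1850 and 1979 CPM with 2-MiCit, groups that did not overlap but that were not called (log2 fold change 0.14, SE 0.05, adjusted p = 0.0566, edgeR). MT-ND5 was at 1951 ± 66.9 CPM in controls and 2166 ± 169 CPM with 2-MiCit (adjusted p = 0.0711, edgeR). For both genes 2-MiCit replicate 3 was the lowest treated library, and without it 3 of the 7 mitochondrial subunits and 14 nuclear subunits were called. Without control replicate 3, 2-MiCit replicate 2 or 2-MiCit replicate 4 the nuclear calls were 3, 4 and 4.
Of the other respiratory and mitochondrial lists in SKCO1, each held a few calls and all of these were lower, except that the other mitochondrial mRNAs had none. Against the 10.8% of all genes called lower, these were 1 of 20 assembly factors (NDUFAF2, which acts late in assembly, -0.22), 5 of 16 genes of mitochondrial transcription and RNA handling, among them PNPT1 (-0.14), FASTKD4 (-0.10) and LRPPRC (-0.09), and 2 of 7 regulators, PPRC1 (-0.13) and GABPB1 (-0.12). Complex II had 1 of 4 lower (SDHD), complex III 2 of 9 (UQCRH and UQCRC2), complex IV 4 of 11 (COX5A, COX6B1 and COX8A first) and complex V 2 of 15 (ATP5MC3 and ATP5F1B).

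In HT29 and SW1417 few subunits were called. Log2 fold changes were below 0 for 27 of 35 nuclear subunits in HT29 (median -0.06) and for 23 of 34 in SW1417 (median -0.04). Of all tested genes 50.31% were below 0 in HT29 and 49.85% in SW1417. In HT29, 1 of 35 nuclear subunits was lower, or 2.86%, against 3.02% of 13887 genes tested, and no mitochondrial subunit was called, with 0 below an unadjusted p of 0.05 and 0 by DESeq2. The member was NDUFB9, at 460.3, 473, 473 and 445 CPM in controls and at 418, 403, 411 and 427 CPM with 2-MiCit, without overlap. It was 1.12-fold lower (log2 fold change -0.16, SE 0.03, adjusted p = 0.0188, edgeR). That call was lost without control replicate 1, 2 or 3 or without 2-MiCit replicate 3, with adjusted p up to 0.0762. NDUFV1 had 191 ± 6.38 CPM in HT29 controls and 179.5 ± 7.01 CPM with 2-MiCit and was not called.
NDUFB9 was the only member called in 3 lines, NDUFAB1 was called in 2, and the other 9 called nuclear members in 1 each. Of all tested genes 18.0% were called lower in HCT116, 10.8% in SKCO1 and 3.02% in HT29. The share of genes called in several lines was not counted, so these values do not say whether such a recurrence is unusual.

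In SW1417, 1 of 34 nuclear subunits and 1 of 7 mitochondrial subunits were lower, against 4.05% of 14089 genes. NDUFB3, an accessory subunit of the far membrane arm, was at 57.5, 59.2, 58.8 and 61.5 CPM in controls and at 54.0, 54.4, 53.8 and 56.9 CPM with 2-MiCit. It was 1.08-fold lower, with no overlap (adjusted p = 0.0407, edgeR), and lost the call without any 1 library except control replicate 1 and 2-MiCit replicate 4.
MT-ND2 was at 3936, 4009, 4025 and 4249 CPM in controls and at 3754, 3810, 3882 and 3859 CPM with 2-MiCit. It was 1.06-fold lower, with no overlap (adjusted p = 0.0491, edgeR), and kept the call only when control replicate 1 was the library left out.
The other mitochondrial subunits of SW1417 overlapped between groups. MT-ND4 was at 4771, 4858, 5036 and 5642 CPM in controls and at 4783, 4848, 4853 and 5067 CPM with 2-MiCit, and MT-ND5 at 2492, 2512, 2581 and 2863 CPM against 2459, 2533, 2516 and 2592 CPM. MT-ND1 was at 2407, 2360, 2326 and 2673 CPM in controls and at 2379, 2378, 2283 and 2376 CPM with 2-MiCit, and MT-ND4L at 766, 776, 777 and 883 CPM against 776, 748, 766 and 785 CPM. Control replicate 4 was the highest library for these 4 genes. MT-ND3 was at 762, 735, 755 and 719 CPM in controls and at 714, 736, 731 and 712 CPM with 2-MiCit, and MT-ND6 at 29.6, 32.0, 28.1 and 40.3 CPM against 33.5, 33.8, 28.0 and 35.6 CPM. NDUFV1 had 188 ± 4.66 CPM in SW1417 controls and 186 ± 1.01 CPM with 2-MiCit.
Among the other lists, COA1 was lower in HT29 (-0.27) and TMEM70 in SW1417 (-0.13), while ECSIT, an assembly factor of the membrane arm, was higher in both (0.24 and 0.16). That is 1 of 20 assembly factors, or 5%, in each direction and line. Of all tested genes 4.65% were called higher in HT29 and 2.94% in SW1417. The subunits ATP5F1B in HT29, ATP5MC3, ATP5MC1 and the complex IV subunit COX7A2 in SW1417, the RNA-binding protein SLIRP and the regulator GABPB1 in HT29 were the other calls of the respiratory and mitochondrial lists, all lower. In HT29 these were 1 of 15 complex V subunits, 1 of 16 RNA handling genes and 1 of 7 regulators. In SW1417 they were 2 of 15 complex V and 1 of 11 complex IV subunits.

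In DLD1, LoVo and SW948 no subunit passed the test, and nearly all nuclear subunits of a line had fold changes on 1 side of 0. In DLD1, 33 of 35 had values below 0, with a median log2 fold change of -0.46, and 9 were lower at an unadjusted p below 0.05. In LoVo, all 33 tested were below 0, with a median of -0.17, and 6 were lower at an unadjusted p below 0.05. In SW948 the direction was opposite: 33 of 34 were above 0, with a median of 0.36, and 3 were higher at an unadjusted p below 0.05. Over all genes of these lines edgeR called 0.148% in DLD1, 2.30% in LoVo and 0% in SW948, and DESeq2 called 0, 1 and 0 of the nuclear subunits. At an unadjusted p below 0.05 the shares of all genes were 8.64% lower in DLD1, 11.0% lower in LoVo and 3.59% higher in SW948. The shares of all tested genes below 0 were 49.64% in DLD1, 50.49% in LoVo and 49.63% in SW948.
The mitochondrial subunits had medians of 0.03 in DLD1, 0.08 in LoVo and -0.36 in SW948, where all 7 were below 0, and none was called by edgeR or DESeq2. At an unadjusted p below 0.05 only 1 was higher, in LoVo, where 10.3% of all genes were. No assembly factor, subunit of another complex, RNA handling gene or regulator of the lists was called in these 3 lines. The lean to 1 side was not particular to complex I. In DLD1 all 4, 9, 11 and 15 nuclear subunits of complexes II, III, IV and V were below 0. In LoVo 3 of 4, 9 of 9, 11 of 11 and 15 of 15 were. In SW948 4 of 4, 8 of 9, 11 of 11 and 15 of 15 were above 0. The regulators did not share it, with 2 of 7 below 0 in DLD1, 4 of 7 in LoVo and 5 of 8 in SW948.

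The nuclear medians of DLD1 and SW948 depended on 1 library each. The summed level of the nuclear subunits was 4378 CPM in DLD1 control replicate 1 and 1914 to 2588 CPM in the other 7 libraries of DLD1. It was 5121 CPM in SW948 2-MiCit replicate 2 and 2504 to 3228 CPM in the other 7 libraries of SW948. Relative to the mean of the 8 libraries, the median nuclear subunit was 0.83 log2 units higher in the first and 0.74 in the second. Without DLD1 control replicate 1 the median log2 fold change of the nuclear subunits in DLD1 was -0.17, and without SW948 2-MiCit replicate 2 that in SW948 was 0.12, with still 0 members called in each. In LoVo the median was -0.07 without control replicate 4, the library with the highest summed level (3383 CPM against 2399 to 2843), and 4 nuclear subunits and 1 mitochondrial subunit were called without control replicate 1.
NDUFV1 shows the same libraries: it was at 354, 214, 204 and 221 CPM in DLD1 controls and at 179, 185, 206 and 185 CPM with 2-MiCit. In SW948 NDUFV1 was at 234, 226, 297 and 282 CPM in controls and at 245, 454, 284 and 301 CPM with 2-MiCit. In LoVo it was at 201, 208, 213 and 275 CPM in controls and 199, 202, 202 and 196 CPM with 2-MiCit. The highest value in each line was in the library named above.

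**Figure D4:**
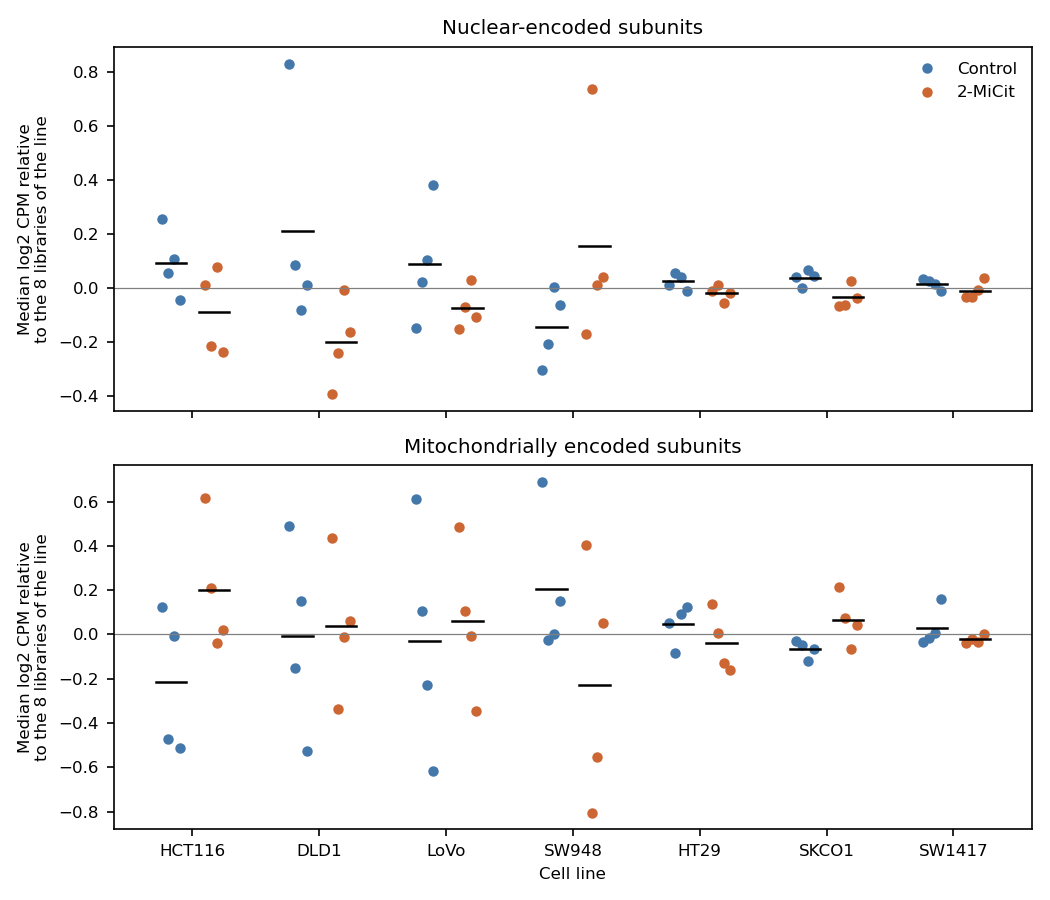
Median log2 CPM of the nuclear (top) and mitochondrial (bottom) subunits in each library, relative to the mean of the 8 libraries of its line; bars are group means of 4 libraries. DLD1 control replicate 1 (0.83) and SW948 2-MiCit replicate 2 (0.74) stand above the other libraries in the nuclear panel, and the table of 3 lines has the narrower spread.

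These libraries also differed from the others in their dependence on transcript length. For every library, the slope of relative log2 CPM on log2 transcript length was fitted over nuclear genes. A negative slope means relatively more reads from short transcripts. Nuclear complex I subunits have short mRNAs: their median length was 761 bases, and 94.5% of 15306 nuclear genes in the table of 4 lines were longer. The slope was -0.29 in DLD1 control replicate 1, -0.23 in SW948 2-MiCit replicate 2 and -0.12 in LoVo control replicate 4. In the table of 3 lines all slopes were between -0.01 and 0.02.
In the plot of library medians against slope, libraries of the table of 4 lines with more negative slopes mostly had higher nuclear medians. In the table of 3 lines, with its narrow slopes, this did not always hold. HT29 2-MiCit replicate 1 had the lowest slope of its line (-0.0129) and a nuclear median of -0.0123. The mitochondrial medians showed no order common to the lines. From the lowest to the highest slope of a line they went from -0.62 to 0.61 in LoVo, -0.80 to 0.69 in SW948 and -0.07 to 0.215 in SKCO1. They went from 0.14 to -0.16 in HT29, 0.49 to 0.43 in DLD1, 0.13 to 0.02 in HCT116 and -0.03 to -0.02 in SW1417. Their relation to the slope within lines was not tested. In HCT116 the slopes were -0.04 ± 0.06 in controls and 0.04 ± 0.07 with 2-MiCit (SD, n = 4), and they overlapped. In SKCO1 they were -0.01 ± 0.003 in controls and 0.01 ± 0.01 with 2-MiCit, and overlapped only through 2-MiCit replicate 3 (-0.0125). Treated replicates 1, 2 and 4 (0.0215, 0.0138 and 0.0064) lay above all SKCO1 controls (-0.0099 to -0.0024).

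**Figure D5:**
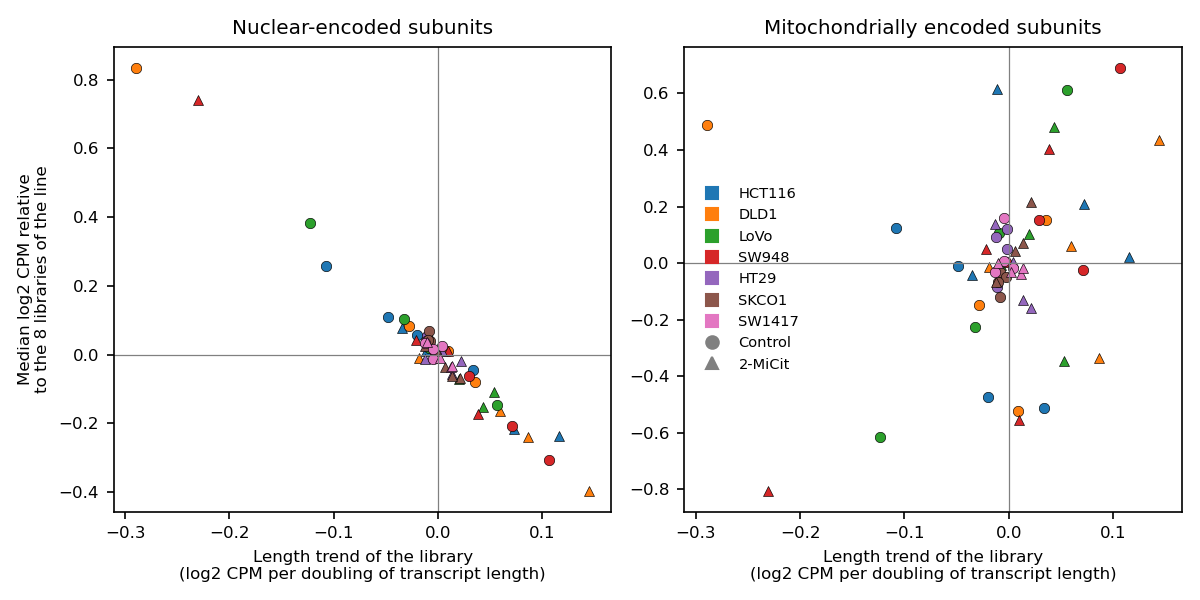
Median relative log2 CPM of the nuclear (left) and mitochondrial (right) subunits against the length slope of each of 56 libraries; circles are controls, triangles 2-MiCit, and colours are lines. Nuclear medians descend from 0.83 at a slope of -0.29 to -0.40 at a slope of 0.14, and the mitochondrial medians have no order common to the lines.

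With the length slope of each library taken out of the fit, the median log2 fold change of the nuclear subunits was -0.20 in DLD1, 0.16 in SW948, -0.08 in LoVo, -0.06 in HCT116 and -0.05 in SKCO1. That of the mitochondrial subunits was 0.51 in HCT116, where 5 were then called higher, and 0.16 in SKCO1. NDUFAB1, NDUFB10 and NDUFB9 in HCT116 and NDUFS7, NDUFAB1 and NDUFA12 in SKCO1 kept their calls. Within the nuclear list, before the slope was taken out, the fold changes of 32 members correlated with transcript length at r = 0.59 in DLD1 and r = -0.43 in SW948. After it was taken out, r had the opposite sign, -0.45 in DLD1 and 0.35 in SW948. In HCT116 r was 0.12 before and -0.27 after, and in SKCO1 -0.05 and -0.23. These values describe genes that share the same libraries.

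The size of the response was then compared between lines of the same table, as an interaction of treatment and line. In the table of 4 lines 18.0% of 15800 genes differed in response, and 4 of 35 nuclear subunits (NDUFB3, NDUFA10, NDUFB10 and NDUFB5) and 0 of 7 mitochondrial subunits did, with adjusted p of 0.0243, 0.029, 0.0358 and 0.0401 for the 4 (edgeR). At an unadjusted p below 0.05 there were 29 nuclear and 0 mitochondrial members, against 36.1% of genes. All 4 differed between SW948 and DLD1, the lines of the 2 libraries described above. They were not alone in this pair, where nearly all tested nuclear subunits had an adjusted p below 0.05 (edgeR) and no mitochondrial subunit did. The nuclear exceptions were NDUFS7, NDUFA9, NDUFV3, NDUFS4, NDUFA12, NDUFA3, NDUFA6 and NDUFS3. The share of all genes that passed in this pair was not counted.
NDUFB3 was at 103, 58.8, 48.9 and 56.9 CPM in DLD1 controls and 33.7, 46.3, 46.4 and 42.3 CPM with 2-MiCit. It was at 64.7, 77.3, 88.6 and 79.4 CPM in SW948 controls and 79.5, 150, 105 and 86.6 CPM with 2-MiCit. Its log2 fold change was 1.10 higher in SW948 than in DLD1 (SE 0.26, adjusted p = 0.0217, edgeR), and the extremes lay in DLD1 control replicate 1 and SW948 2-MiCit replicate 2.
NDUFA10, a kinase-like accessory subunit beside the membrane arm, was at 126, 117, 112 and 120 CPM in DLD1 controls and 103, 107, 105 and 105 CPM with 2-MiCit. It was at 160.0, 166, 177 and 177 CPM in SW948 controls and 169, 215, 181 and 181 CPM with 2-MiCit. The difference of its log2 fold changes was 0.31 (SE 0.08, adjusted p = 0.0231, edgeR). The DLD1 groups did not overlap, and the SW948 groups did.
NDUFB5, of the far membrane arm, was at 101, 71.6, 57.8 and 62.9 CPM in DLD1 controls and 40.0, 59.0, 64.4 and 56.6 CPM with 2-MiCit. It was at 73.4, 92.8, 103 and 88.7 CPM in SW948 controls and 97.3, 150, 112 and 107 CPM with 2-MiCit. The difference was 0.80 (SE 0.22, adjusted p = 0.0298, edgeR), with overlap in both lines.
NDUFB10 was at 157, 98.2, 85.5 and 93.9 CPM in DLD1 controls and 65.0, 68.3, 93.1 and 75.6 CPM with 2-MiCit. It was at 76.8, 73.2, 94.4 and 87.7 CPM in SW948 controls and 83.4, 147, 90.2 and 97.1 CPM with 2-MiCit. The difference was 0.85 (SE 0.23, adjusted p = 0.0298, edgeR) and that between SW948 and HCT116 was 0.72 (SE 0.23, adjusted p = 0.0283).
Without DLD1 control replicate 1 and SW948 2-MiCit replicate 2, an alternative chosen after seeing the data, none of the 4 passed, with adjusted p of 0.067, 0.0813, 0.143 and 0.0545 in the order given for their values, and NDUFAB1 was the 1 member that did (adjusted p = 0.0452, edgeR).
In the table of 3 lines 5.49% of 16090 genes differed in response and no member did in edgeR's test, with 5 nuclear and 2 mitochondrial members at an unadjusted p below 0.05, against 20.6% of genes. The smallest adjusted p was 0.116 for a nuclear and 0.23 for a mitochondrial subunit. In these fits the rise of MT-ND4, MT-ND4L and MT-ND5 in HCT116 was not shown to differ from the other 3 lines of its table, nor were the lower levels in SKCO1 shown to differ from HT29 and SW1417.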

How the data were processed

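RNA of 56 libraries was sequenced from column-purified RNA and stranded mRNA libraries, per the labels' protocols. GRCh38.p13, Salmon 1.5.0, Trimmomatic 0.39, DESeq2 and bcl2fastq 2.20.0 are named, per the submitters' processing notes. The authors deposited raw count tables, in whole numbers per Ensembl gene, and normalized tables, whose signal is the count divided by a factor. That factor was 1 value per library in the table of 4 lines, and in the table of 3 lines it varied between genes, the 99th centile 1.90 to 2.14 times the first. Only the raw counts were used in the main tests.

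Counts were fitted per line with edgeR 4.0.16 in R 4.3.3 (TMM scaling, default expression filter, robust quasi-likelihood F test, 4 libraries against 4), and p-values were adjusted over all genes tested. SE is the log2 fold change divided by the root of F. CPM use TMM library sizes. Interactions and control levels were fitted within each table. Precision is limited by 4 libraries per group and, for NDUFA3 and NDUFS3, by low counts. Gene names and transcript lengths came from GENCODE 29, the length being the median over protein-coding transcripts of its basic set. The scripts were tested on simulated data.

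The named genes are all members, with per-library values for mitochondrial subunits where 1 is called, for up to 4 called nuclear members per line and up to 4 interaction members, NDUFV1 in every line, and up to 3 called genes of each other list. MT-ND1 and MT-ND5 of SKCO1, and values that describe control levels or low counts, were chosen after their values were seen. Members and lists were chosen with earlier results of these data known. Alternatives were other size factors, filters, DESeq2 1.42.0, a replicate block, the length slope as an offset, 1 fit over the lines of a table, the authors' gene-wise factors (chosen after seeing the data) and leaving out libraries.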

Additional observations from a re-analysis of the deposited data

Results flagged for a closer look

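NDUFA3 in HCT116 with 2-MiCit had 1 library far from the others, replicate 2 at 1.72 CPM against 0.957 to 1.03 CPM in the other 3. Of 78 groups of 4 libraries looked at in this way this was the only one, and chance gives about 1 in 20. Without that library NDUFA3 remained called, on 8 to 10 counts in the controls.

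The response to 2-MiCit differed between the 4 lines of 1 table for NDUFB3 (interaction adjusted p = 0.0243, edgeR), NDUFA10 (0.029), NDUFB10 (0.0358) and NDUFB5 (0.0401), with fold changes below 1 in DLD1 and above 1 in SW948. Without DLD1 control replicate 1 and SW948 2-MiCit replicate 2 none of the 4 passed.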

How the results depend on the processing

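Every median of the nuclear and mitochondrial subunits kept its direction under all settings that used all libraries, and no call turned its direction. The counts of called members moved as follows, and the cause was not tested. In HCT116, nuclear subunits called lower were 7 with DESeq2, 9 with the replicate block and the length trend removed and 0 in 1 fit over the 4 lines. Those called higher were 0 with the stricter filter of 5 CPM, with DESeq2 and in 1 fit, 3 with the length trend removed and 4 with the block and the trend removed. Mitochondrial subunits called higher in HCT116 were 5 with the trend removed, a trend fitted over nuclear genes only, and 0 in 1 fit. In DLD1, 4 nuclear subunits were lower in 1 fit, and in LoVo 1 was with DESeq2 and 1 with the block and the trend removed. In HT29, nuclear subunits called lower were 2 in 1 fit and 0 with the authors' gene-wise factors. In SKCO1 they were 3 with those factors, 1 nuclear subunit was called higher with the trend removed, with or without the block, and 1 mitochondrial subunit was higher with the stricter filter. In SW1417 the nuclear call was 0 with the trend removed, with the block and the trend removed, in 1 fit and with the authors' factors. The mitochondrial call there was 0 under these 4 settings, with no filter and with mitochondrial genes left out of library sizes. The interaction members of the table of 4 lines were 7 with the trend removed and 1 without DLD1 control replicate 1 and SW948 2-MiCit replicate 2.

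The labels do not say whether same-numbered libraries were paired. Deviations of same-numbered libraries correlated at 0.08 to 0.28 in HCT116 and at -0.32 to 0.05 in DLD1, and no line had all 4 above 0.1. In HCT116 7 of 8 libraries correlated best with their own number, a hint from the data and not the design. With the replicate block, nuclear subunits called lower were 19 in HCT116, 11 in SKCO1 and 2 in HT29, nuclear subunits called higher were 2 in HCT116, and mitochondrial subunits called higher were 4 in SKCO1, also 4 with the trend removed. MT-ND5 in HCT116 lost its call with the replicate block (adjusted p = 0.0684, edgeR) and with the block and the trend removed (0.0751). With the replicate block the interaction called 1 member in each table: MT-ND4 in the table of 4 lines (adjusted p = 0.022), where NDUFB3, NDUFA10, NDUFB5 and NDUFB10 were not called (0.0713 to 0.126), and NDUFA5 in the table of 3 lines (0.0489). NDUFC1 in SKCO1 also lost its call with the block and the trend removed, and NDUFC1 and NDUFV1 there in 1 fit and with the authors' factors.

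Leaving out 1 library gave 3 to 14 nuclear subunits lower and 1 to 2 higher in HCT116, with 14 without 2-MiCit replicate 3 and 7 without control replicate 4. In LoVo it gave 0 to 4 nuclear lower and 0 to 1 mitochondrial higher, in HT29 0 to 1 nuclear lower, in SKCO1 3 to 14 nuclear lower and 0 to 3 mitochondrial higher, and in SW1417 0 to 1 lower of either kind. The mitochondrial median ranged from -0.13 to 0.24 in DLD1 and from -0.10 to 0.33 in LoVo. Low counts limit NDUFA3 and NDUFS3, and NDUFA6 where it was at 0.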
